A study of Homo sapiens with 4 samples.

Results

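Transcripts of extracellular matrix proteolysis were examined in the human cell line GIST-T1, which was established from a gastrointestinal stromal tumor (GIST). The set consists of 9 genes for secreted or cell surface proteases and their inhibitors: A2M, TIMP1, TIMP2, TIMP3, SERPINE2, PLAU, PLAUR, MMP2 and MMP14. Its members were selected on measured values of the same comparison that is described here, so their differences are a description and carry no test. Every probe that the array files name for 1 of the 9 genes was kept, which gave 11 of the 50599 probes of the array, and 9 of its 36337 gene names. Of these, 9 probes for 8 genes passed the filter on dim probes, a signal well above background on the 2 arrays of 1 group or more, and were among the 20328 tested probes, and the only gene without such a probe was MMP14.

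One group of cells was transfected with 100 pmol of a mirVana miR-335 mimic, a synthetic double-stranded RNA that stands in for the microRNA. The other received 100 pmol of mirVana miRNA mimic Negative Control #1. Both groups were grown and nucleofected alike, and total RNA was taken 48 h later for hybridization to 1-color arrays, with 2 arrays per group. The titles and the transfection field of both mimic samples name miR-335, but a second line of their descriptions names miR-34a, another microRNA of the study. The labels do not say whether replicates came from separate cultures, so the spread between them may be technical.

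Proteases outside the cell cut matrix proteins and are held in check by inhibitors. The urokinase-type plasminogen activator (PLAU) turns plasminogen into plasmin, and its receptor (PLAUR) holds it at the cell surface. Matrix metalloproteinases (MMPs) degrade collagens and other matrix proteins, with MMP14 at the membrane able to activate MMP2. Tissue inhibitors of metalloproteinases (TIMPs) block MMPs, SERPINE2 inhibits serine proteases including thrombin and urokinase, and alpha-2-macroglobulin (A2M) traps proteases of all classes.

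Both mature sequences of miR-335 are shown, since the labels name the mimic only as miR-335, without a strand. They come from RefSeq (GRCh38.p14, chr7:130496126-130496148 for the 5p strand and chr7:130496162-130496183 for the 3p strand, both on the plus strand), and the capitals mark the seed, bases 2 to 8.
hsa-miR-335-5p: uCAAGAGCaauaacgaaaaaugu
hsa-miR-335-3p: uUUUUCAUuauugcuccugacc
The letters that pair with the 5p seed, GCTCTTG, were found in 0 of the 11 probe sequences of the set, which are 60 bases long, and in 100 of the 20328 tested probes (0.492%). Those that pair with the 3p seed, ATGAAAA, were also found in 0 of the 11, against 214 tested probes (1.05%). Probes were read in the sense orientation of the transcript only, and they cover a small part of each transcript.

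Among the tested probes, those of 3 genes had the largest differences between the groups, and the first bases of 3 of them are shown to identify what was measured. All lie in coding sequence and are written in the sense direction.
A2M: cttgttcttcacggttctgcaagatgtccc
PLAUR: acaggaccctgagctatcggactggcttga
PLAU, upstream probe: tataacgatccccagtttggcacaagctgt

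The signal for A2M was lower with the mimic, that for PLAUR was lower, and that for PLAU was higher, whereas the groups overlapped for TIMP1, TIMP2, TIMP3, SERPINE2 and MMP2. Values are log2 of the scanner's processed signal, less the array's 75th percentile, and a difference is the mimic mean minus the control mean on that scale. The mimic arrays both lay above or both lay below the 2 control arrays for 4 of the 9 tested probes, 2 lower and 2 higher, beside 59.7% of all tested probes. In limma, 2 of the 9 passed a Benjamini-Hochberg adjusted p of 0.05 over all tested probes, both lower with the mimic. Over all tested probes 2.62% passed, and 1.15% passed in the lower direction. With any 1 of the 4 arrays left out, 0 of the 9 passed. The group means of 0 of the 9 were more than 1.5-fold apart, the limit used by the study, beside 3.9% of all tested probes. Because these contrasts chose the members, nothing is read from the counts. The median difference of the 9 probes was 0.0014, beside -0.014 over all tested probes, and the median size of the difference, without its sign, was 0.083 beside 0.10.

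**Figure D1:**
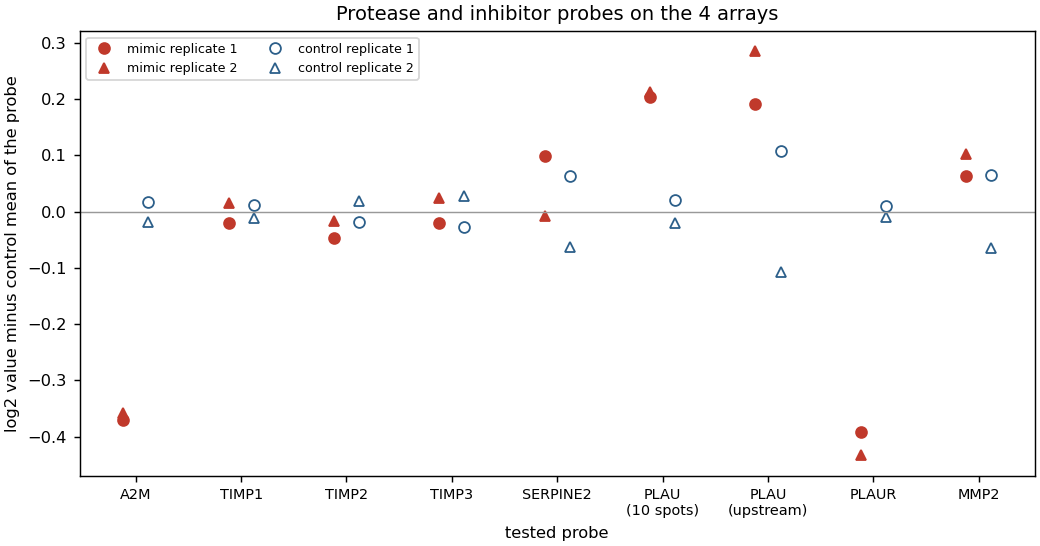
Value of each tested probe on each array, on the vertical axis as log2 minus the control mean of that probe, with filled red symbols for the 2 mimic arrays, open blue symbols for the 2 control arrays, and circles and triangles for replicates 1 and 2. The mimic arrays lie below both controls for A2M and PLAUR and above both for the 2 PLAU probes, and the other 5 probes overlap.

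A2M was measured with 1 probe (chr12:9221359-9221418, minus strand, hg19) printed at 10 spots per array. The intensity was 1344 and 1308 units on the mimic arrays and 1658 and 1644 units on the control arrays. After scaling, the values were 2.82 and 2.84 with the mimic and 3.21 and 3.18 in the control. Both mimic arrays were therefore below both controls, and the gap between the groups was wider than the gap between replicates in either group. The difference was -0.36 ± 0.04 (SE from limma, n = 2 each), or 1.29-fold lower, and over the 4 ways to set a mimic array against a control it ran from -0.39 to -0.34. Of all tested probes, 9.98% differed by more, in either direction.

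The replicate spots of A2M, which measure the same labelled RNA and are not replicates of the condition, separated the arrays as well. The 19 usable spots on the mimic arrays ran from 2.74 to 2.91 with a median of 2.83, and 1 further spot was left out as an outlier. The 20 spots on the control arrays ran from 3.11 to 3.27 with a median of 3.20. No mimic spot reached the lowest control spot. A2M has a pseudogene, A2MP1, and both probes that the files name for it were well above background on 0 of the 4 arrays. In bulk RNA, fewer cells that express a gene and less of its RNA per cell cannot be told apart.

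**Figure D2:**
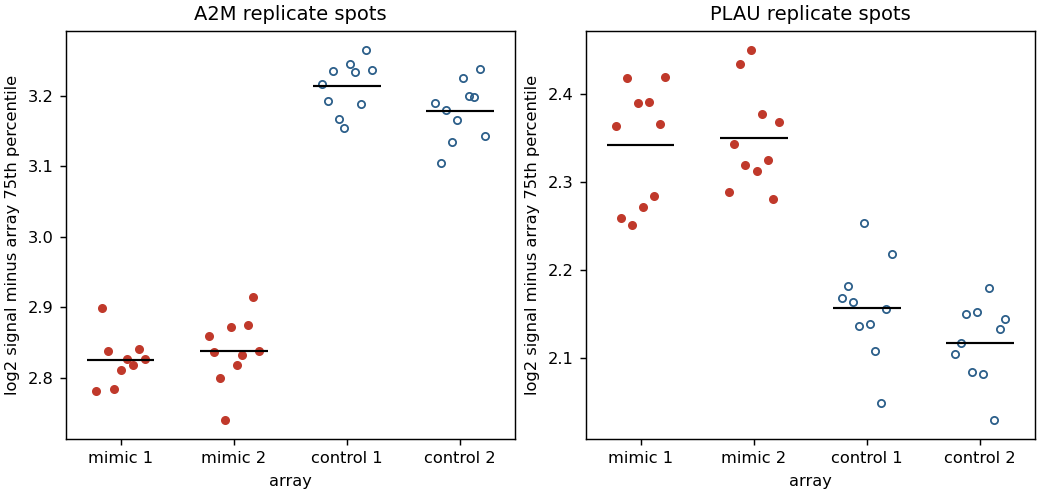
Every usable replicate spot of the A2M probe (left) and of the 10-spot PLAU probe (right) on each array, as log2 signal minus the 75th percentile of the array, with a black line at the mean of the array. The A2M spots of the mimic arrays, 2.74 to 2.91, all lie below those of the control arrays, 3.11 to 3.27, whereas the PLAU spots of the 2 groups meet near 2.25.

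Urokinase, PLAU, was measured with 2 probes that lie 2377 bases apart on the genome. For the probe nearer the 3′ end (chr10:75677050-75677109, plus strand, hg19), printed at 10 spots, the values were 2.34 and 2.35 with the mimic and 2.16 and 2.12 in the control. The difference was 0.21 ± 0.04 (SE, n = 2 each), or 1.16-fold higher, and 23.6% of all tested probes differed by more. Its 20 mimic spots ran from 2.25 to 2.45 and its 20 control spots from 2.03 to 2.25, so that a single control spot reached the lowest mimic spot. For the upstream probe (chr10:75674614-75674673), with 1 spot, the values were -1.47 and -1.38 with the mimic and -1.55 and -1.77 in the control. Both mimic arrays were again above both controls, by a smaller margin, with a difference of 0.24 ± 0.09 (SE, n = 2 each). This probe was dim, at 68.5 and 70.5 intensity units with the mimic and 60.9 and 53.4 in the control, and the scanner software gave its spots errors of up to 13.3%. Neither PLAU probe passed the adjusted threshold in limma.

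PLAUR, the receptor of urokinase, was lower with the mimic. Its single probe (chr19:44169498-44169557, minus strand, hg19) had values of -1.06 and -1.10 with the mimic and -0.66 and -0.68 in the control. The intensities were 91.1 and 85.3 units with the mimic and 113 and 114 in the control. This probe was dim too, with 1 spot, and the scanner software gave it errors of up to 12.2%. The groups did not overlap, and the difference of -0.41 ± 0.04 (SE, n = 2 each), or 1.33-fold lower, was exceeded in size by 7.95% of all tested probes. With normexp on the mean pixel signals and an offset of 50 in place of the processed signal, the difference of PLAUR was -0.20 and that of A2M was -0.35.

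The gelatinase MMP2 was measured with 1 probe well above background (chr16:55540518-55540577, plus strand, hg19). Its values were 0.99 and 1.03 with the mimic and 0.99 and 0.86 in the control, and the groups met at 0.99. The difference, 0.08 ± 0.06 (SE, n = 2 each), was smaller than the gap between the control arrays. A second probe that the files name MMP2 lies 116.788 kb away under an accession of its own and was well above background on 0 of the 4 arrays. The probe for MMP14 (chr14:23315791-23315850, plus strand, hg19) was not well above background on any array either, with 5.39 and 6.59 intensity units for the mimic and 5.05 and 4.31 for the control, so no fold is given.

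The 3 TIMPs had nearly the same signal in both groups. TIMP1 (chrX:47444666-47444725, plus strand) had values of 4.66 and 4.69 with the mimic and 4.69 and 4.67 in the control. TIMP3 (chr22:33258540-33258599, plus strand), the TIMP that binds to the matrix, had values of 2.34 and 2.39 with the mimic and 2.34 and 2.39 in the control. TIMP2 (chr17:76849063-76849122, minus strand), which also takes part in the activation of MMP2 by MMP14, had values of 6.06 and 6.09 with the mimic and 6.09 and 6.13 in the control. In all 3 genes the groups overlapped. The differences were -0.0030 ± 0.04 for TIMP1, 0.0014 ± 0.04 for TIMP3 and -0.032 ± 0.04 for TIMP2 (SE, n = 2 each). SERPINE2 (protease nexin 1), whose probe spans 1699 bases of the genome (chr2:224840597-224842295, minus strand), had values of 0.41 and 0.30 with the mimic and 0.37 and 0.24 in the control. These groups overlapped too, and the difference of 0.05 ± 0.07 (SE, n = 2 each) was smaller than the gap between replicates in either group.

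**Figure D3:**
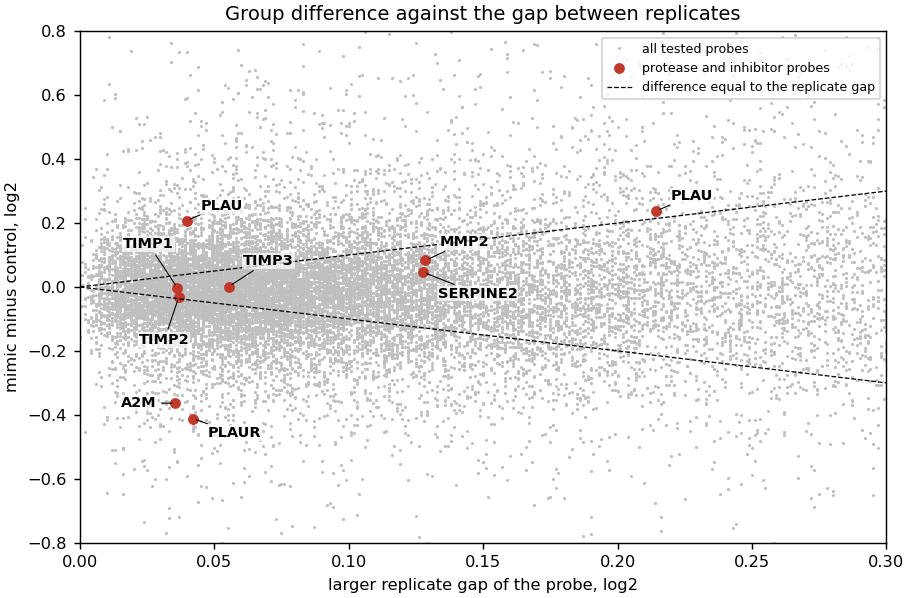
Difference between the group means (vertical axis, log2) against the larger of the 2 gaps between replicate arrays (horizontal axis, log2), with 1 gray point per tested probe and red points for the 9 probes of the set; 3052 of the 20328 tested probes lie outside the plotted range. A2M, PLAUR and both PLAU probes lie outside the dashed lines, where the difference equals the gap, and the TIMP, SERPINE2 and MMP2 probes lie between them.

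The scaling set the zero of all these values. Scaled to 7 external spike-in RNAs in place of the 75th percentile, the median of all tested probes moved from -0.014 to -0.20, and each difference moved down by 0.19. A2M and PLAUR were then at -0.55 and -0.60. The PLAU probes stayed above 0, at 0.02 and 0.05, and the TIMP probes lay between -0.22 and -0.19, with SERPINE2 at -0.14 and MMP2 at -0.10. Since this scaling shifts all probes of an array by 1 constant, differences relative to the median of all probes are the same under both.

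**Figure D4:**
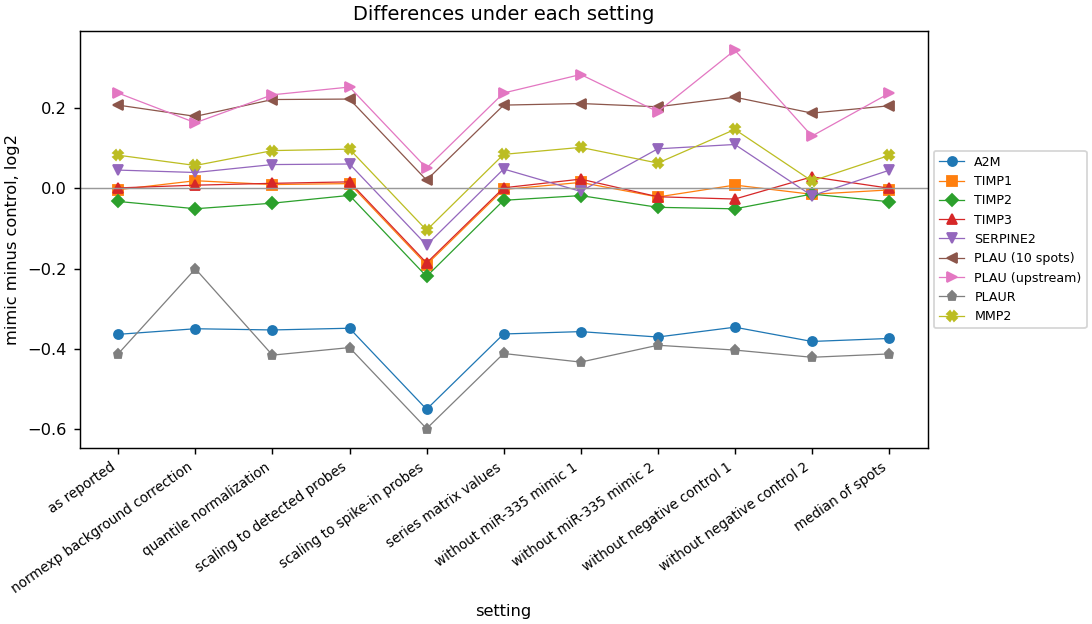
Difference between the group means (vertical axis, log2) of each tested probe under the reported processing and 10 alternatives (horizontal axis), with 1 line per probe. The lines for A2M, from -0.55 to -0.35, and PLAUR, from -0.60 to -0.20, stay below 0 and those of PLAU above it under every setting plotted, and all lines drop together with spike-in scaling. Leaving out 1 array could not take these lines of A2M, PLAUR and PLAU across 0, since their groups do not overlap.

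From general knowledge, 5 lists were written with 89 other genes linked to proteolysis, some of them intracellular. All 89 genes were on the array. Of these, 51 had a tested probe, and 3 passed the adjusted threshold over all probes in limma. MMP1 was the 1 gene that rose (1.96% of those tested, beside 1.42% of all gene names), and SERPINB9 and CTSL1 were the 2 that fell (3.92%, beside 1.34%). For 30 of the 51 genes the groups did not overlap, beside 59.7% of all tested probes. The median difference of the 51 was -0.034, beside -0.014 over all tested probes. At an unadjusted p below 0.05, 15 of the 51 passed, beside 25.3% of all tested probes. With 1 array left out the differences were 0.38 to 0.42 for MMP1, -0.94 to -0.84 for SERPINB9 and -0.58 to -0.54 for CTSL1. Their direction could not reverse, since the groups did not overlap for any of these 3 genes. How far their calls depended on single arrays is given in the last section.

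Among the other MMPs, 10 of 21 genes were tested, of which 1 rose and none fell. MMP1, the interstitial collagenase (chr11:102660697-102660756, minus strand, hg19), had values of 4.98 and 5.02 with the mimic and 4.61 and 4.59 in the control. It rose by 0.40 ± 0.04 (SE, n = 2 each; limma adjusted p = 0.0426). The largest difference that did not pass was that of MMP3 (stromelysin 1), with -1.35 and -1.56 with the mimic and -2.16 and -2.08 in the control. Both mimic arrays were above both controls for MMP3, by 0.67 ± 0.09 (SE, n = 2 each; limma adjusted p = 0.0684).

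Of the other plasminogen system genes, 7 of 13 were tested and 0 passed in limma (2 at an unadjusted p below 0.05). Plasminogen itself (PLG) and the plasminogen receptor subunit ANXA2 were well above background on 0 of the 4 arrays. PLAT, the tissue-type plasminogen activator, was tested and had values of 9.40 and 9.42 with the mimic and 9.49 and 9.46 in the control. Its difference of -0.07 ± 0.04 (SE, n = 2 each) did not pass (limma adjusted p = 0.361). S100A10, the partner of ANXA2, had the largest difference of the list, 0.33 ± 0.20 (SE, n = 2 each), with overlapping groups and a limma adjusted p of 0.374.

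Of the other inhibitors, 13 of 25 were tested, and 1 fell. SERPINB9 (chr6:2887562-2887621, minus strand, hg19), an intracellular inhibitor of granzyme B, had values of -0.74 and -0.68 with the mimic and 0.23 and 0.13 in the control. It fell by 0.89 ± 0.06 (SE, n = 2 each; limma adjusted p = 0.0348), or 1.85-fold. The relatives of A2M on this list, PZP, A2ML1 and CD109, and the remaining TIMP, TIMP4, were well above background on 0 of the 4 arrays. SERPING1, the C1 inhibitor, had the largest difference that did not pass, -0.17 ± 0.07 (SE, n = 2 each; limma adjusted p = 0.228).

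The list of proprotein convertases, ADAMs and ADAMTS proteases had 19 genes, some of them outside these families. Of these 19, 13 were tested and 0 passed in limma (4 at an unadjusted p below 0.05). The largest difference was that of PCSK5, a proprotein convertase, at -0.43 ± 0.06 (SE, n = 2 each; limma adjusted p = 0.0713). Of 11 genes on the cathepsin list, lysosomal proteases for the most part, 8 were tested and 1 fell. CTSL1, cathepsin L (chr9:90345326-90345385, plus strand, hg19), had values of 6.78 and 6.83 with the mimic and 7.37 and 7.35 in the control, and it fell by 0.56 ± 0.04 (SE, n = 2 each; limma adjusted p = 0.0351). Its probes disagreed. A second CTSL1 probe was 0.33 ± 0.05 higher with the mimic (SE, n = 2 each; limma adjusted p = 0.0783). Probes named for the pseudogenes CTSL1P8 and CTSL1P2 fell by 0.57 and 0.49 (limma adjusted p = 0.0351 and 0.0449). The sequences of the gene and its pseudogenes were not compared here, so whether their probes share signal was not tested. CTSO had the largest difference of the list that did not pass, -0.34 ± 0.07 (SE, n = 2 each; limma adjusted p = 0.108).

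**Figure D5:**
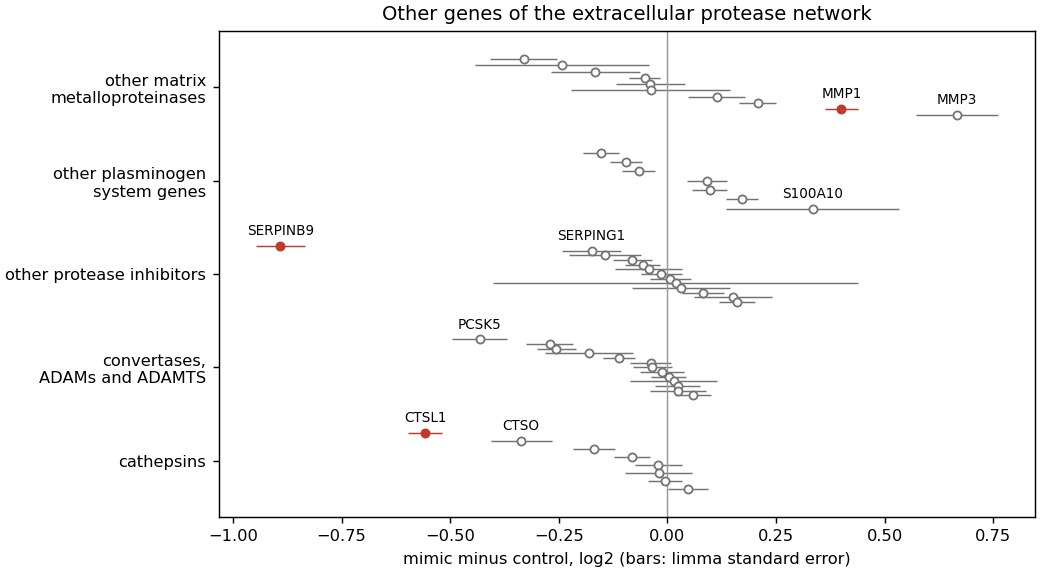
Difference between the group means (horizontal axis, log2) for the 51 tested genes of the 5 other lists, with 1 point per gene, bars for the standard error from limma, and filled red points for genes that passed the adjusted threshold. MMP1 at 0.40, SERPINB9 at -0.89 and CTSL1 at -0.56 passed, and the other named genes had the largest difference of their list that did not.

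The pattern of A2M over the 4 arrays was matched most closely by PLIN3, IBA57, FANCL, RPP14 and PLD6 among 14243 gene names. After each probe was centered on its own mean, the largest distance from A2M on any array was 0.0042 for PLIN3 and 0.017 for PLD6, over 4 arrays. These genes were picked for this likeness, and no test is attached.

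The cell identity was checked with marker lists. All 6 markers of GIST and of interstitial cells of Cajal were tested, among them KIT, ANO1 and ETV1, and 0 of the 6 passed the threshold in limma (2 at an unadjusted p below 0.05), and by the brightest probe of each gene the differences of all 6 were below 0, with a median of -0.09. The probes of ANO1 disagreed, with -0.07 ± 0.04 for the brightest and 0.47 ± 0.05 for a second one (SE, n = 2 each; limma adjusted p = 0.349 and 0.0533). The difference of KIT was -0.33 ± 0.04 for the brightest probe (SE, n = 2 each; limma adjusted p = 0.0512). Its other probes had smaller differences, -0.14 ± 0.04 and -0.06 ± 0.08 (SE, n = 2 each; limma adjusted p = 0.161 and 0.674). Of the fibroblast markers 4 of 5 were tested, and 0 passed in limma (3 at an unadjusted p below 0.05). The groups were apart in all 4, beside 59.7% of all tested probes. DCN, LUM and THY1 were lower with the mimic, with differences of -0.35, -0.33 and -0.08 (limma adjusted p = 0.0610, 0.0533 and 0.323), and COL1A1 was higher by 0.35 (limma adjusted p = 0.183). Of the smooth muscle markers 2 of 4 were tested, and ACTA2 fell by 0.50 ± 0.04 (SE, n = 2 each; limma adjusted p = 0.0392, and 0.154 to 0.196 with any 1 array left out), with MYH11 and CNN1 well above background on 0 of the 4 arrays. The epithelial list had 3 of 5 genes tested, the leukocyte list 2 of 5, the hepatocyte list 1 of 3 and the endothelial list 0 of 3, and 0 passed in limma (0, 1, 1 and 0 at an unadjusted p below 0.05). PTPRC, CD3E, VWF, PECAM1 and ALB were well above background on 0 of the 4 arrays, and the endothelial marker CDH5 on 2 of them. The part of KIT, DCN, LUM, ACTA2 and the other markers in the differences of A2M and PLAUR was not tested.

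Between 20386 and 21214 probes were well above background per array (40.3% to 41.9%), and no spot was saturated. The median absolute log2 difference was 0.06 between replicate arrays in both groups and 0.11 to 0.12 between a mimic and a control array. All 4 arrays lay on 1 slide, with the controls in positions 1 and 2 and the mimics in positions 3 and 4, so position and group cannot be told apart. The number of arrays limits the precision, and an exact permutation test of 2 arrays against 2 cannot give a two-sided p below 0.333.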

How the data were processed

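RNA from GIST-T1 cells was labelled with 1 dye (100 ng per array) and hybridized to a human Agilent array with hg19 probe coordinates. The intensity values that the authors deposited came from Feature Extraction 10.7.3.1 per the file headers, background-subtracted and not normalized between arrays. The series table, also deposited by the authors, holds the same intensity within 0.50%, with medians of 12.4, 11.9, 11.2 and 12.1 for mimic replicates 1 and 2 and control replicates 1 and 2. It is linear and not centered, and it was used as an alternative.

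Control spots and outlier spots (356 to 395 per array) were left out, and spots of a probe were averaged as log2 values after a floor of 1. The 75th percentile of each array (178.8 to 189.7 units) was subtracted. Probes well above background (at least 0.5 of their spots) on both arrays of a group were compared by lmFit and eBayes of limma (version 3.58.1, under R 4.3.3), with p-values adjusted by the Benjamini-Hochberg method over 20328 probes (15454 gene names). Lists used the brightest probe per gene. Named from the lists were genes that passed and the largest difference that did not. Likeness was the smallest distance to A2M on the worst array. One listed gene is not reported here by name. Other genes were named after their values were seen. The members and lists were chosen with earlier results of these data known. Of the 11 probes of the set, 10 had an accession in the RefSeq gene table (GRCh38.p14). Figures were drawn with matplotlib 3.10.9.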

Additional observations from a re-analysis of the deposited data

How the results depend on the processing

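The differences of A2M, PLAUR and both PLAU probes kept their sign with normexp, quantile normalization, the series table and the median of spots. They also kept it with scaling to detected or spike-in probes, but spike-in scaling left the PLAU probes at only 0.02 and 0.05. Leaving out 1 array could not reverse the sign, since both mimic arrays lay on 1 side of both controls for each of these probes. Leaving out 1 array gave -0.38 to -0.35 for A2M, -0.43 to -0.39 for PLAUR, and 0.19 to 0.23 and 0.13 to 0.35 for the PLAU probes. The number of probes of the set with groups apart, 4 as reported, was 5 with quantile normalization, 6 with scaling to detected probes and 5 with the series table. It was 8 with spike-in scaling and 5 to 8 without 1 array. The number over 1.5-fold apart was 1 with spike-in scaling (PLAUR). The matching shares over all tested probes under these settings are not given, so nothing is read from these counts.

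The calls depended on the processing more than the differences did. Against 532 probes called over the array and 3 genes of the other lists, normexp gave 1550 and 5, spike-in scaling 9592 and 27, an intensity trend 3083 and 8, and no filter on dim probes 0 and 0 (3627 probes had an unadjusted p below 0.05, against 5148 as reported). With spike-in scaling 9076 calls were lower and 516 higher, against 233 and 299 as reported, so that the share of higher calls was 5.38% against 56.2%. Leaving out any 1 array gave 0 to 8 probes and 0 to 0 list genes (limma; 3578 to 3907 unadjusted), so the calls of A2M, PLAUR, MMP1, SERPINB9, CTSL1 and ACTA2 were lost without any of the 4. PLAUR did not pass with normexp. With spike-in scaling, which moved the differences of all probes down together, the 3 TIMP probes also passed, as lower. With an intensity trend the 10-spot PLAU probe passed, as higher. For the probes of the set such passes are a description and carry no test, since the same contrast chose them. A t-test on each probe gave 0 and 0 after adjustment (4115 unadjusted). The study names t-tests for continuous variables, but for its arrays it states only a fold limit. With the replicate number as a replicate block, limma called 0 probes and 0 list genes (4400 unadjusted), but the replicate differences of the groups correlated at only 0.03, so the numbers were not taken to pair the samples. A slide or scan block could not be run, since all 4 arrays share 1 slide and 1 scan. MMP14 and the second MMP2 probe have no measured difference, since both were well above background on 0 of the 4 arrays. The cause of these dependences was not tested.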
